A study of Mus musculus with 6 samples.

Results

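The LY6 family surface proteins examined here are 9 mouse genes, Ly6e, Ly6a, Ly6c1, Ly6c2, Ly6d, Ly6k, Lypd3, Psca and Cd59a, among the 34745 genes counted in each library. They were chosen by gene symbol, with their measured difference between the groups already known, so the comparison of the groups is given for them as a description without a test. Of the 9 members, 4 (Ly6e, Ly6a, Ly6c1 and Psca) had more than 500 counts summed over the 6 libraries and were among the 10046 genes that entered the test across all genes. The other 5 (Ly6c2, Ly6d, Ly6k, Lypd3 and Cd59a) fell below that filter. Ly6a had the fewest counts among the members inside it (795), and Cd59a the most among those outside it (32).

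Proteins of the LY6/uPAR family share a compact three-finger fold held together by disulfide bonds, and most are tethered to the outer leaflet of the plasma membrane by a glycosylphosphatidylinositol (GPI) anchor. In mice many of the genes stand in a cluster on chromosome 15, and several, such as Ly6a and Ly6e, are known to be induced by interferon. Their members serve as lineage markers of blood, endothelial and epithelial cells and as regulators of complement, protease and nicotinic acetylcholine receptor function.

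RNA was sequenced from 889 cells (889-DTC), a murine lung cancer line that the labels describe as C57BL/6 lung. In 3 libraries the cells carried a control sgRNA (labelled sg-con, here sgcontrol), which in the methods is an EGFP sgRNA in a lentiviral CRISPR vector. In the other 3 they carried an sgRNA against kiaa1522 (labelled sg-kiaa1522, here sgkiaa1522) in lentiCRISPRv2, so that both groups carried Cas9 and no drug treatment is named in the labels of either. After infection the cells were sorted or selected with puromycin, per the methods. Which of the kiaa1522 sgRNAs was used, whether the cells were a clone or a pool, and whether the replicates were separate cultures are not given in the sources used here, so errors and p-values measure only the spread between these libraries.

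The libraries held between 12220001 and 18609376 counts, and 3 counts, the limit that a count of 0 allows, corresponded to between 0.162 and 0.247 CPM, counts scaled by the normalised library total. The library of sgcontrol replicate 1 stood apart from the other 2 of its group, with a chi-square per degree of freedom over genes of 23.4 and 30.7 against them, where the other pairs within a group had 12.3 to 12.8. It also held the most counts of the blood markers Ptprc (14, 1 and 6 in sgcontrol) and Lyz2 (63, 18 and 37). Without it the log2 fold changes of Ly6e, Ly6a, Ly6c1 and Psca were 7.72, 1.29, 0.55 and -1.27. The targeted gene, listed as C77080, had 127 ± 2.93 CPM (SD, n = 3) in sgcontrol and 210 ± 6.38 CPM (SD, n = 3) in the libraries labelled sgkiaa1522. Its transcript was thus higher, not lower, where it was targeted (log2 fold change 0.73, SE 0.057, adjusted p = 9.1e-05, edgeR quasi-likelihood test). The paper describes the cells as depleted of KIAA1522. RNA counts do not measure the protein, so whether it was depleted cannot be read from them. The second group is called by its label, the libraries labelled sgkiaa1522. The epithelial keratin Krt8 had between 19827 and 24345 counts in sgcontrol and between 12166 and 17711 in the other group, whereas Epcam, a defining epithelial surface marker, had 0 counts in all 6 libraries. The lung lineage factor Nkx2-1 varied within both groups, with 970, 1096 and 227 counts in sgcontrol and 132, 174 and 671 in the libraries labelled sgkiaa1522.

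Of the 9 members, 7 lie on chromosome 15, with starts at -240 kb (Psca), -191 kb (Ly6d), -155 kb (Ly6k), 43.0 kb (Ly6a), 93.8 kb (Ly6c1) and 157 kb (Ly6c2) from the start of Ly6e. Positions are from GENCODE M21 on GRCm38, where Ly6e occupies chr15:74955051-74959905 on the plus strand, Ly6a chr15:74994877-74998031 on the minus strand, Ly6c1 chr15:75044018-75048830 on the minus strand and Psca chr15:74714839-74717069 on the plus strand. Lypd3 is on chromosome 7 and Cd59a on chromosome 2.

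Ly6c1 and Ly6c2 are neighbouring paralogs of similar sequence that encode the Ly-6C antigens of blood and endothelial cells, and they had unlike levels in these cells. The windows around their starts are shown for that reason, since the counts of the pair differ while the windows are alike. They come from RefSeq promoters on GRCm38.p6, from 250 bases before to 50 bases after an annotated start, at chr15:75048788-75049087 for Ly6c1 and chr15:75111922-75112221 for Ly6c2, both on the minus strand. Capitals mark TATAAA and CCAAT.
Ly6c1: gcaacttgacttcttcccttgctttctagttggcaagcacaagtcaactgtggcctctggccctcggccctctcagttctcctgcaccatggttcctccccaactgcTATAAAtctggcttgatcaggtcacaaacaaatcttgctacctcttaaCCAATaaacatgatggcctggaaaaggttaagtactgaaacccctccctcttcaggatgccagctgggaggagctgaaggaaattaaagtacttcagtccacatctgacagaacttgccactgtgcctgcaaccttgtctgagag
Ly6c2: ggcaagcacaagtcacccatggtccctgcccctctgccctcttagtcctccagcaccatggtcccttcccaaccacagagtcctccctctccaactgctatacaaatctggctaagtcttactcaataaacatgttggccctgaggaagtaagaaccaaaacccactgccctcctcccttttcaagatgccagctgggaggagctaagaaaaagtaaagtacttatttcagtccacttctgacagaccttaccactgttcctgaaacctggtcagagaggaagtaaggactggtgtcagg
In an alignment of these windows 266 bases were paired, of which 208 (78.2%) were identical and 58 differed, with 16 gap bases. TATAAA began at position -143 and CCAAT at position -95 from the start of Ly6c1, and neither was found in the Ly6c2 window on either strand. Both genes have another RefSeq window with a later start, and neither set of letters was found in those of Ly6c1 or Ly6c2, which were identical at 89.3% of 177 paired bases.

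RefSeq promoter windows matched 4 of the 9 members (Ly6c1 and Ly6c2 with 2 windows each, Lypd3 and Cd59a with 1 each), and no window was matched for Ly6e, Ly6a, Ly6d, Ly6k and Psca. The letters searched on both strands were those of a TATA box (TATAAA), of a CCAAT box, of the core of the interferon-stimulated response element (GAAA, any 2 bases, then GAAA) and of the interferon-gamma activated site TTCNNNGAA. Of 32851 windows of the same length, 13.6% held the TATA box, 37.4% the CCAAT box, 3.44% that core and 8.3% TTCNNNGAA. Among the members' windows, the response element core was found in that of Cd59a (GAAAGGGAAA, from position -187), and TTCNNNGAA in none. These matches describe the letters of the windows and were not related to the counts.

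Ly6e, a broadly expressed and interferon-inducible member that acts in mice as the receptor of the placental fusion protein syncytin-A, showed the largest difference among the members. It had 20, 4 and 3 counts in sgcontrol, and the libraries labelled sgkiaa1522 had 556, 702 and 796. The groups did not overlap, and the library of sgcontrol replicate 1 held most of the sgcontrol counts. After trimmed mean of M values (TMM) normalisation the level was 0.515 ± 0.549 CPM (SD, n = 3) against 43.7 ± 4.68 CPM (SD, n = 3). The summed counts of each group were also divided by its summed normalised library totals. The ratio of the groups was then 84.4, with a 95% counting interval from 57.8 to 128. The fitted log2 fold change was 6.39 (SE 0.42), which ranked 5 from the top among the 10046 genes. Without sgcontrol replicate 1 it was 7.72.

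Ly6a encodes stem cell antigen-1 (Sca-1), a marker of mouse haematopoietic stem cells and of some lung and mesenchymal progenitors. Its counts were 69, 83 and 87 in sgcontrol and 169, 202 and 185 in the libraries labelled sgkiaa1522, so that every library of the second group lay above every library of the first. The level was 4.55 ± 0.633 CPM (SD, n = 3) against 11.9 ± 1.71 CPM (SD, n = 3). The ratio of summed counts, scaled as for Ly6e, was 2.58 with a counting interval from 2.21 to 3.02. The log2 fold change was 1.39 (SE 0.16).

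Ly6c1 had 295, 436 and 396 counts in sgcontrol, and the libraries labelled sgkiaa1522 had 494, 472 and 647. In CPM the groups came close without overlapping, since sgcontrol replicates 2 and 3 reached 23.5 and 23.8 CPM and replicate 2 of the other group stood at 25.7 CPM, below the 40.7 and 38.1 CPM of replicates 1 and 3. The level was 21.4 ± 3.88 CPM (SD, n = 3) against 34.9 ± 7.99 CPM (SD, n = 3), with a log2 fold change of 0.70 (SE 0.20), which did not reach the fold threshold of 1 on the log2 scale. It was 0.55 at the lowest and 0.88 at the highest over the fits that each lacked 1 library.

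Psca, prostate stem cell antigen, is a GPI-anchored protein of epithelial surfaces that is raised in several carcinomas. It was the member with a difference in the opposite direction, with 226, 244 and 266 counts in sgcontrol and 79, 121 and 88 in the libraries labelled sgkiaa1522. All 3 sgcontrol libraries were above all 3 of the other group. The level was 14.0 ± 1.67 CPM (SD, n = 3) against 6.10 ± 0.793 CPM (SD, n = 3), or 2.30-fold higher in sgcontrol, with a log2 fold change of -1.20 (SE 0.15).

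**Figure D1:**
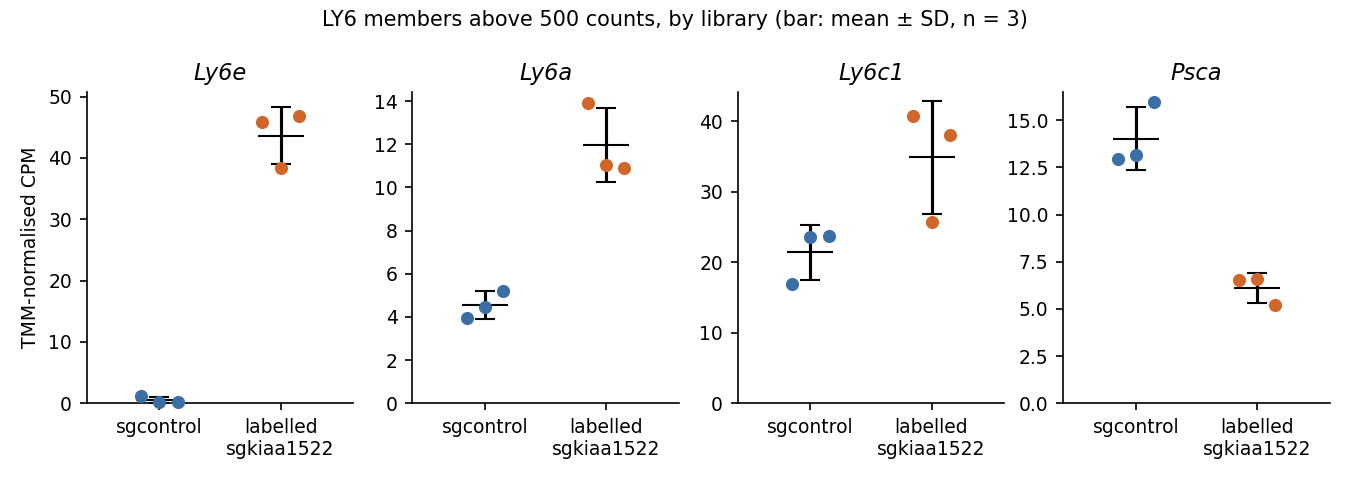
TMM-normalised CPM of Ly6e, Ly6a, Ly6c1 and Psca in each library, with sgcontrol in blue, the libraries labelled sgkiaa1522 in orange, and bars for the mean ± SD (n = 3). The groups do not overlap for any of the 4 genes, and the gap is narrowest for Ly6c1, between 23.8 and 25.7 CPM.

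A gene was called past the threshold where its adjusted p did not exceed 0.05 and its log2 fold change was 1 or more in size. Of the 4 members that passed the filter 3 were past it, 2 higher (Ly6e and Ly6a) and 1 lower (Psca), where 7.08% of all tested genes were past it (2.74% higher and 4.34% lower). The groups did not overlap for 4 of 4, against 61.7% of all tested genes (30.6% higher and 31.1% lower). By the adjusted p alone 3 members were higher and 1 was lower, where 26.3% of all tested genes were higher and 26.3% lower. Since the members were chosen with these differences known, these counts describe the choice and are no test of it, and nothing is read from the shares. Ly6e in addition passed the filter only through its high group, with 27 counts summed over sgcontrol and 2054 over the libraries labelled sgkiaa1522. The median log2 fold change was 1.04 over the 4 genes and -0.0067 over all tested genes.

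**Figure D2:**
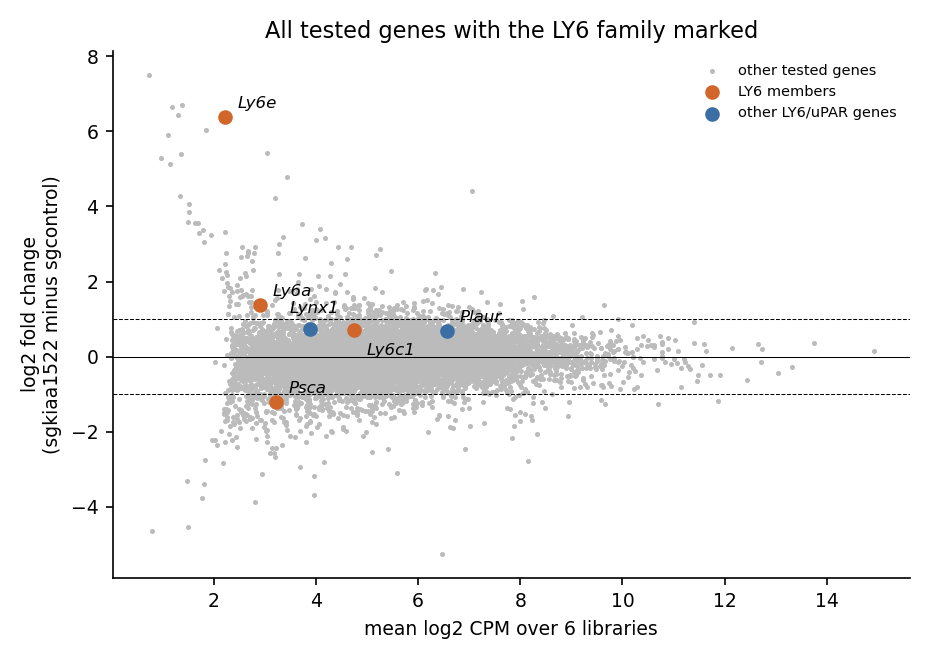
Log2 fold change of all 10046 tested genes against their mean log2 CPM over the 6 libraries, with the 4 tested LY6 members in orange, the other tested LY6/uPAR genes Lynx1 and Plaur in blue, and dashed lines at 1 and -1. Ly6e stands at 6.39 near the low end of abundance, Ly6a at 1.39, Ly6c1 at 0.70 and Psca at -1.20.

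The members below the filter were at or near the counting limit. Cd59a, an inhibitor of the membrane attack complex of complement, had 5, 11 and 5 counts in sgcontrol and 0, 3 and 8 in the libraries labelled sgkiaa1522, and the groups overlapped. The ratio of its summed counts, scaled as for Ly6e, was 0.581 with a counting interval from 0.253 to 1.26, so that a difference was not detectable at this depth. Ly6d, an early B-cell and squamous epithelial marker, had 1, 0 and 2 counts in sgcontrol and 0 in each of the other libraries.

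Lypd3 (C4.4A), a squamous epithelial surface protein that binds anterior gradient proteins, had 1 count in replicate 2 of each group and 0 elsewhere. Ly6c2 had 1 count in sgcontrol replicate 3 and in replicates 1 and 2 of the libraries labelled sgkiaa1522. Ly6k, a testis protein needed for sperm migration, had 0 counts in all 6 libraries, which allows at most 0.162 to 0.247 CPM. No fold is given for these 4 genes, because both groups were at or under 3 counts.

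To compare levels between members, counts were divided by the summed exon length and scaled to the same total in each library (TPM, a level per length). In sgcontrol the order was Psca (41.8 ± 4.55 TPM), Ly6c1 (32.7 ± 5.28 TPM), Ly6a (9.68 ± 1.19 TPM), Cd59a (0.555 ± 0.237 TPM) and Ly6e (0.354 ± 0.385 TPM), each as mean ± SD with n = 3. Cd59a and Ly6e overlapped, whereas the other neighbours in this order did not. The order of Psca and Ly6c1 turned when the longest transcript was taken as the length, with 34.3 and 53.3 TPM, respectively. So did that of Cd59a and Ly6e, with 0.457 and 0.483 TPM.

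In the libraries labelled sgkiaa1522 the order was Ly6c1 (56.9 ± 13.5 TPM), Ly6e (31.6 ± 3.78 TPM), Ly6a (27.1 ± 3.80 TPM), Psca (19.4 ± 2.25 TPM) and Cd59a (0.323 ± 0.368 TPM), each with n = 3. The ranges of Ly6e and Ly6a overlapped, and those of Ly6a and Psca did not. Ly6d, Ly6c2, Lypd3 and Ly6k stayed under 0.41 TPM in each library.

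**Figure D3:**
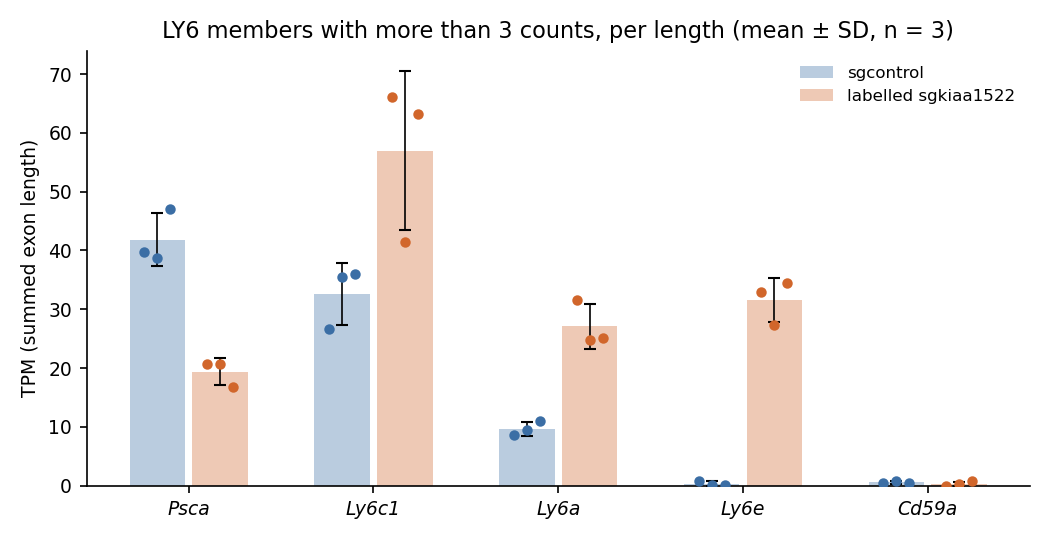
TPM of the 5 LY6 members with more than 3 counts in total, by group, with bars for the mean, error bars for the SD (n = 3) and points for the libraries. Psca stands highest in sgcontrol (41.8 TPM) and below Ly6c1, Ly6e and Ly6a in the libraries labelled sgkiaa1522 (19.4 TPM), where Ly6e has 31.6 TPM.

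Several members resemble each other in sequence, and the deposited counts are of uniquely mapped fragments. Of the distinct 50-base stretches in the annotated transcripts, 32.8% of those of Ly6c1 and 19.0% of those of Ly6a also occur in other genes, most of them in Ly6c2 (21.5%) and Ly6c1 (15.03%), respectively. At 150 bases the shares were 2.29% for Ly6c1 and 0 for Ly6a, and for Ly6e and Psca they were 0 at both lengths. Counts of Ly6a, Ly6c1 and Ly6c2 are for that reason less certain than those of Ly6e and Psca. Ly6k and Lypd3 overlap antisense genes, which had 0 counts.

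Ly6a and Ly6c1 are also expressed by blood, endothelial and mesenchymal cells, and Psca by epithelial cells, so markers of these types were read in the same libraries. In bulk RNA fewer cells of a type and less RNA per cell cannot be told apart. The 10 haematopoietic markers (11 gene rows) summed to between 1.51 and 5.51 CPM in sgcontrol and between 1.47 and 1.94 CPM in the libraries labelled sgkiaa1522, with 3 at 0 in all libraries, and the 5 endothelial markers to between 0.809 and 1.72 and between 0.942 and 1.24 CPM. Ly6c1 stood above both sums in every library, with 16.9 CPM at the lowest. Ly6a did so in the libraries labelled sgkiaa1522, with 10.9 CPM at the lowest, and was between 3.96 and 5.22 CPM in sgcontrol.

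The 7 fibroblast markers summed to between 467 and 486 CPM in sgcontrol and between 167 and 198 CPM in the libraries labelled sgkiaa1522, and most of either sum was the collagen chain Col1a2 (424 ± 8.11 against 154 ± 9.91 CPM, SD, n = 3), the 1 of 2 tested that was lower past the threshold (7.08% of all tested genes were past it). Both tested markers, Col1a2 and Pdgfrb, fell by the adjusted p alone, where 26.3% of all tested genes did. Of the others, Col1a1 had 105 to 137 against 20 to 34 counts and Pdgfrb 43.1 ± 1.37 against 26.3 ± 6.82 CPM (SD, n = 3), while Pdgfra, Dcn and Lum had at most 7 counts in any library and Thy1 had 0 in all 6. The 10 epithelial markers summed to between 3890 and 4617 CPM and between 3275 and 3522 CPM, and all 6 that were tested had a log2 fold change below 0. By the adjusted p alone 0 of these rose and 5 fell (Cdh1, Krt8, Krt18, Krt19 and Sftpb), where 26.3% of all tested genes fell, and 1 was past the threshold (7.08% of all tested genes), the adhesion protein Cdh1 (56.4 ± 4.94 against 20.6 ± 1.15 CPM, SD, n = 3). The part of these markers in the LY6 differences was not tested.

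Other genes of the LY6/uPAR family were taken from a list of 36 symbols, of which 31 were found and 2 passed the filter. Plaur, the urokinase receptor, rose from 74.5 ± 4.51 to 120 ± 1.39 CPM (SD, n = 3; log2 fold change 0.69, SE 0.067, adjusted p = 0.00019, edgeR quasi-likelihood test). Lynx1, a modulator of nicotinic receptors that lies in the chromosome 15 cluster, rose from 11.4 ± 0.651 to 19.0 ± 1.71 CPM (SD, n = 3; log2 fold change 0.73, SE 0.11, adjusted p = 0.0012, same test). Neither reached the fold threshold, whereas both passed the adjusted p alone, as did 52.5% of all tested genes.

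Of the 29 family genes below the filter, 15 had 0 counts in all libraries and 2 had at least 20 counts in total. Ly6g5b, the more abundant of these 2, had 17, 19 and 20 counts in sgcontrol and 18, 30 and 22 in the libraries labelled sgkiaa1522. In a fit of all genes that had any count its log2 fold change was 0.47 (SE 0.29, adjusted p = 0.26, edgeR quasi-likelihood test). Ly6g6d had 8, 11 and 5 counts in sgcontrol and 1, 0 and 2 in the libraries labelled sgkiaa1522, without overlap of the groups. In the same fit its log2 fold change was -2.69 (SE 0.85, adjusted p = 0.028, edgeR quasi-likelihood test).

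The chromosome 15 cluster between the start of Psca and its last family gene held 45 genes that are in the files, of which 30 had 0 counts throughout and 6 passed the filter. These 6 were the 4 members, Lynx1 and Them6. In this interval and 1 megabase on either side of it, 35 tested genes other than the members had a median log2 fold change of -0.026, between -1.01 and 0.73, with 0 higher and 1 lower past the threshold. These 35 thus had 2.86% past the threshold, where all tested genes had 7.08%. By the adjusted p alone 10 rose and 7 fell, where 26.3% of all tested genes rose and 26.3% fell. The nearest of them to Ly6e were Lynx1 at -202 kb and, on the other side, Zfp41 at 662 kb. Their median therefore does not describe the genes next to Ly6e, Ly6a and Ly6c1.

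Jrk, a DNA-binding nuclear protein gene at -246 kb, was the 1 lower past the threshold and fell from 14.9 ± 0.902 to 7.39 ± 0.905 CPM (SD, n = 3; log2 fold change -1.01, SE 0.13, adjusted p = 0.00058, edgeR quasi-likelihood test). It missed the fold threshold without sgcontrol replicate 3 (-0.98) and without replicate 2 of the libraries labelled sgkiaa1522 (-0.92). Them6, at -234 kb on the other side of Psca, rose from 10.4 ± 0.704 to 14.8 ± 2.47 CPM (SD, n = 3; log2 fold change 0.50, SE 0.14, adjusted p = 0.021, same test). Over the 400 tested genes of chromosome 15 the median was 0.096, with 14 higher and 13 lower past the threshold, or 6.75% against 7.08% of all tested genes. By the adjusted p alone 151 of the 400 rose and 88 fell, where 26.3% of all tested genes rose and 26.3% fell.

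**Figure D4:**
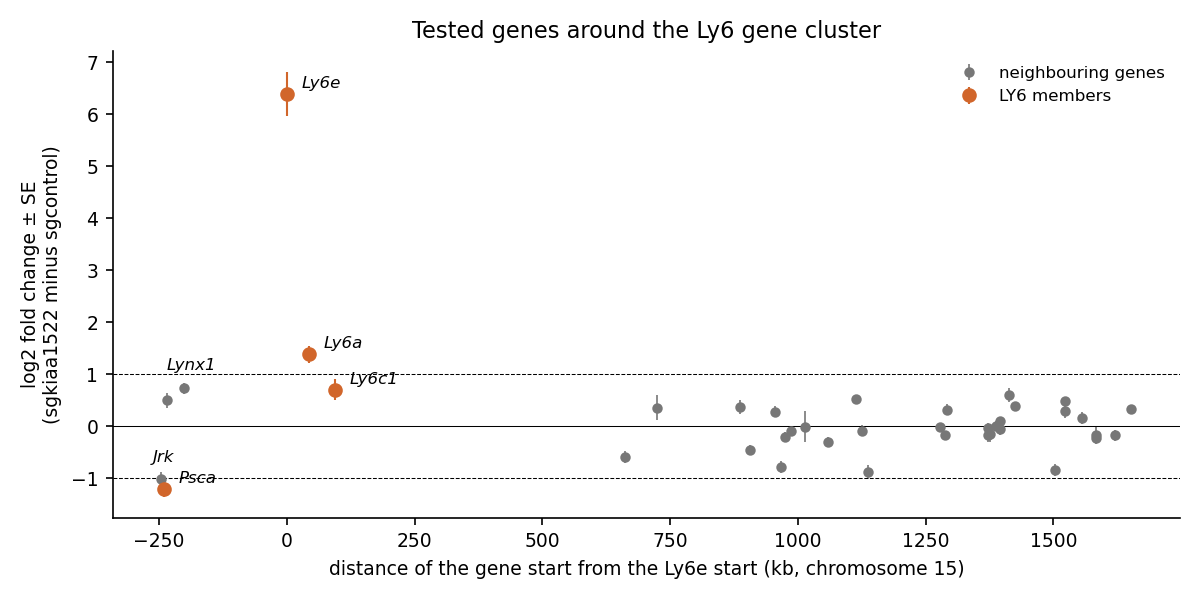
Log2 fold change ± SE of the tested genes around the Ly6 cluster against the distance of their start from that of Ly6e in kb, with LY6 members in orange, neighbouring genes in grey and dashed lines at 1 and -1. Ly6e, Ly6a and Ly6c1 stand above 0 within 93.8 kb, while at the other end Psca (-1.20) and Jrk (-1.01) lie below 0 and their neighbours Them6 (0.50) and Lynx1 (0.73) above it.

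The genes that build and attach the GPI anchor were examined because most LY6 proteins need it to stay at the cell surface. Of 25 tested, 0 were higher and 1 was lower past the threshold, or 4% against 7.08% of all tested genes, with a median log2 fold change of -0.26. Without sgcontrol replicate 1 there were 3 past the threshold, where 8.05% of all tested genes were. By the adjusted p alone 1 rose and 10 fell, where 26.3% of all tested genes rose and 26.3% fell. The 1 lower was Pigh, a subunit of the enzyme that makes the earliest anchor intermediate, which fell from 17.02 ± 1.23 to 6.25 ± 1.15 CPM (SD, n = 3; log2 fold change -1.46, SE 0.15, adjusted p = 0.000245, edgeR quasi-likelihood test). Piga, the catalytic subunit of the same enzyme, was at 9.47 ± 5.17 and 19.7 ± 2.94 CPM (SD, n = 3) and was not past the threshold (log2 fold change 1.06, adjusted p = 0.052, same test).

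Of the interferon response genes, among which Ly6e and Ly6a are usually counted, 19 of 40 were tested. Past the threshold 0 were higher and 1 was lower, or 5.26% against 7.08% of all tested genes, and the median log2 fold change was -0.069. By the adjusted p alone 3 rose and 9 fell, beside the same 26.3% in each direction over all tested genes. The 1 lower was the interferon-induced apoptosis factor Xaf1, which fell from 14.97 ± 0.995 to 3.29 ± 0.791 CPM (SD, n = 3; log2 fold change -2.21, SE 0.17, adjusted p = 9.2e-05, edgeR quasi-likelihood test). Among those that fell, the interferon-gamma receptor chains Ifngr1 and Ifngr2 had log2 fold changes of -0.70 and -0.62. The 3 that rose were Jak2 (0.41), Ifi35 (0.36) and Irf2 (0.32). Isg15, Ifit1, Ifit2, Ifit3, Mx1, Mx2, Oas2, Oasl2, Rsad2, Usp18 and Irf7 were below the filter, so these counts leave them out.

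Complement genes and nicotinic receptor subunits, the binding partners or pathways of Cd59a and Lynx1, were mostly below the filter. The complement list held regulators together with the component C3 and receptors such as C3ar1. Of the 3 genes of this list that were tested (Cr1l, Clu and C3ar1) 1 was past the threshold, where 7.08% of all tested genes were. This was the secreted chaperone Clu, which fell from 141 ± 30.9 to 16.6 ± 2.45 CPM (SD, n = 3; log2 fold change -3.09, SE 0.19, adjusted p = 3.9e-05, edgeR quasi-likelihood test). Of 16 nicotinic receptor subunits only Chrnb1 was tested, at 7.37 ± 1.25 and 10.4 ± 0.666 CPM (SD, n = 3; log2 fold change 0.49, adjusted p = 0.028, same test), below the fold threshold.

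**Figure D5:**
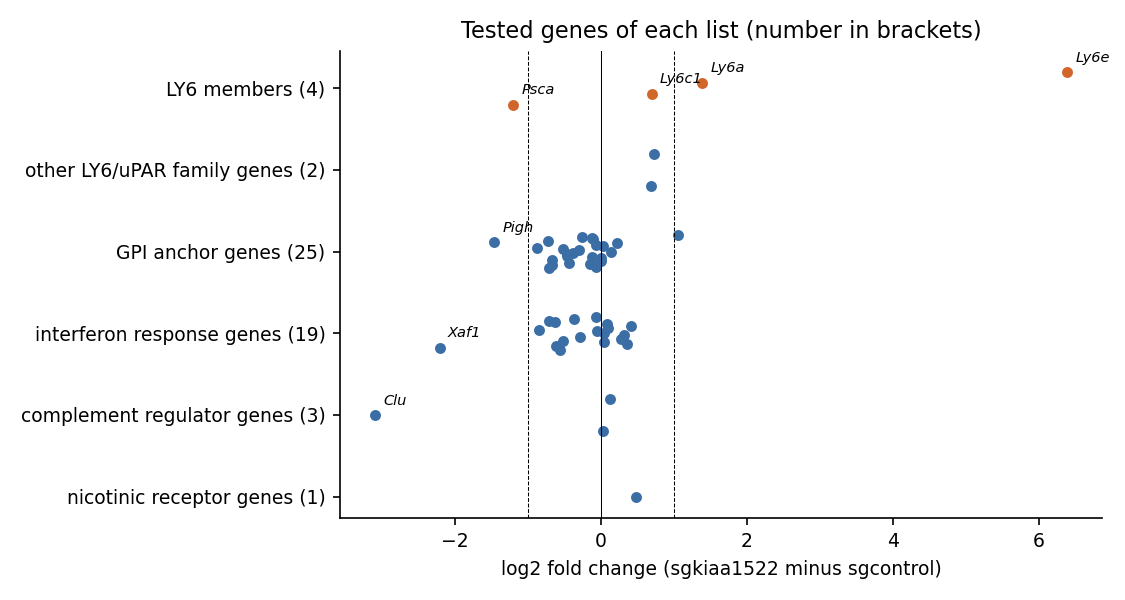
Log2 fold change of each tested gene in the LY6 members (orange) and in 5 related lists (blue), the locus neighbours not being drawn, with the number tested in brackets and dashed lines at 1 and -1. Past the lines and the adjusted p are Ly6e, Ly6a and Psca among the members, and Pigh (-1.46), Xaf1 (-2.21) and Clu (-3.09) among the lists drawn in blue.

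Partners of single members were scarce. Syna, the syncytin-A gene whose product binds Ly6e, had 0, 2 and 3 counts in sgcontrol and 9, 7 and 12 in the libraries labelled sgkiaa1522, without overlap. In the fit of all genes with any count its log2 fold change was 2.57 (SE 0.76, adjusted p = 0.020, edgeR quasi-likelihood test). Agr2, an anterior gradient partner of Lypd3, had 1 count in replicate 1 of each group and 0 elsewhere.

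The genes with patterns most like that of Ly6e were found by the Euclidean distance of centred log2 CPM over the 6 libraries, as a description. They were the glutamate transporter Slc1a3 (distance 1.09), the GTPase regulator Arap3 (1.61), the secretory pathway protein Rcn3 (1.70), the matrix protein Smoc1 (1.72) and the collagen receptor Ddr2 (1.87). Slc1a3 had 6, 4 and 1 counts in sgcontrol and 262, 419 and 384 in the libraries labelled sgkiaa1522, and Arap3 had 32, 15 and 17 against 634, 850 and 1021. Within sgcontrol, replicate 1 held the most counts for Slc1a3, Arap3 and Ddr2 (6, 1 and 5). It tied with replicate 2 for Rcn3 (4, 4 and 3) and was below it for Smoc1 (3, 4 and 2). Since likeness was taken over these same libraries, a shared pattern in replicate 1 is partly built in. Slc1a3, Arap3, Rcn3, Smoc1 and Ddr2 passed the filter only through their high group, with 11, 64, 11, 9 and 12 counts summed over sgcontrol.

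The genes most like Ly6a by the same measure were the stress gene Gadd45a (distance 0.226), the exchange factor Arhgef10l (0.229), the glutathione-degrading enzyme Chac1 (0.235), the phosphate transporter Slc20a1 (0.288) and the aminotransferase Gpt2 (0.288). Gadd45a had 642, 716 and 779 counts in sgcontrol and 1483, 1991 and 1883 in the libraries labelled sgkiaa1522, and its groups did not overlap. By Pearson correlation 0 of the 5 nearest genes of either member were the same, so the names depend on the measure.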

How the data were processed

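Total RNA of 6 libraries was sequenced by the submitters. The authors trimmed adaptors, removed rRNA reads and mapped to GRCm38 with HISAT2 2.0.4, and they counted uniquely mapped fragments per gene with StringTie 1.3.0, per the submitters' processing notes and the methods. The deposited table gives raw counts, whole numbers for each Ensembl gene, and whether the counting used strand is not given in the sources used here. Of 34745 identifiers, 34267 matched GENCODE M21, which gave positions and exon lengths.

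The 10046 genes whose counts summed to over 500 were fitted with edgeR 4.0.16 (R 4.3.3, limma 3.58.1) using TMM factors, the quasi-likelihood test and Benjamini-Hochberg adjustment over all tested genes, and genes were called where the adjusted p did not exceed 0.05 and the log2 fold change was 1 or more in size. The fit had no covariate and was tested on simulated data. SE was the log2 fold change divided by the square root of its F statistic. TPM used the summed exon length. The members and lists were chosen with earlier results of these data known. Named were the members, the targeted gene, tested family genes, genes of the other lists past the threshold (at most 4 in each direction), known partners Syna and Agr2, and the 5 genes nearest to Ly6e and Ly6a (prior count 2). Other list genes and cell type markers printed with values were picked after these were seen. Alternatives were other size factors, filters, tests (among them DESeq2 1.42.0), thresholds and lengths, a replicate block, and each library left out in turn. Counting intervals and the floor of 3 counts cover counting error only.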

Additional observations from a re-analysis of the deposited data

How the results depend on the processing

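As a description of members chosen on these values, 2 were higher and 1 lower past the threshold also under other size factors, filters and tests, with each library left out and with the replicate block. The adjusted p alone gave 3 higher, since it takes in Ly6c1. Fitting every gene with at least 1 count gave 767 higher and 941 lower among 18499 tested genes (9.23%) against 275 and 436 among 10046 (7.08%). In that fit 1 of 16 other LY6/uPAR genes and 2 of 28 GPI anchor genes were past the threshold. So were 3 of 39 interferon response genes and 3 of 10 complement list genes. The filterByExpr filter gave 607 and 812 among 12141 (11.7%), with 2 of 27, 3 of 28 and 3 of 7 in the last 3 lists. More genes were tested under both filters. The likelihood ratio test and DESeq2 each called 2 of 25 GPI anchor genes (7.17% and 7.11% of all tested genes). The adjusted p alone called 2638 higher and 2639 lower, 2 other LY6/uPAR genes, 11 GPI anchor genes, 1 nicotinic receptor gene, 12 interferon response genes and 17 neighbours. Leaving out each library gave 226 to 338 higher and 366 to 456 lower genes, or 6.2% to 8.05% of 9837 to 9927 tested genes. These fits called 1 to 3 of 25 GPI anchor genes (3 without sgcontrol replicate 1) and 0 to 1 of 34 or 35 neighbours. The log2 fold change of Ly6e then ranged from 5.99 to 7.72, of Ly6a from 1.27 to 1.49 and of Psca from -1.27 to -1.09. With the longest transcript as length Ly6e had 42.6 TPM and Ly6c1 92.0 TPM in the libraries labelled sgkiaa1522. No fold change turned its direction, and the cause of the other shifts was not tested.

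The replicate block gave 285 higher and 434 lower genes. Same-numbered libraries did not deviate together (correlations of -0.21, -0.051 and -0.17), and not every library correlated best with its own number. The samples therefore share only a number.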

Other observations

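Among the genes of the related lists that fell below the filter, most had few counts or small differences, and 4 with larger ones are given here. They were chosen for this after their values were seen, and their tests come from the edgeR quasi-likelihood fit of every gene with at least 1 count. Complement component C3 had 40, 38 and 43 counts in sgcontrol and 2, 1 and 2 in the libraries labelled sgkiaa1522 (log2 fold change -4.34, SE 0.43, adjusted p = 1e-05). Serping1, the inhibitor of the C1 proteases, had 6, 0 and 0 counts in sgcontrol and 29, 45 and 55 in the other group (4.48, SE 0.64, adjusted p = 0.00016), all of the sgcontrol counts being in replicate 1. The immunoproteasome subunit Psmb8 had 8, 6 and 5 against 31, 43 and 31 counts (2.61, SE 0.34, adjusted p = 8.7e-05), whereas the interferon-induced GTPase Gbp2 had 15, 13 and 11 against 2, 5 and 4 (-1.65, SE 0.49, adjusted p = 0.021). Psmb9, another immunoproteasome subunit of the list, differed in sign from Psmb8, with 15, 30 and 19 against 10, 11 and 10 counts (-0.86, SE 0.38, adjusted p = 0.10, same fit).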
